A study of Mus musculus with 20 samples.

Results

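The genes described here encode 8 nuclear proteins of the cardiac respiratory chain that carry iron, either as iron-sulfur clusters or as heme. They were selected by function and not by their values: *Ndufv1*, *Ndufv2*, *Ndufs1*, *Ndufs7* and *Ndufs8* of complex I, *Uqcrfs1* and *Cyc1* of complex III, and the mobile carrier *Cycs*. All 8 were among the 23420 genes of the count table, and all 8 passed the filter for expression that left 13590 genes for testing. Messenger RNA of whole hearts was sequenced from 10 mice on a control diet and 10 mice on an iron-deficient diet, which were iron deficient and anemic (IDA). All 20 animals were male, wild-type C57BL/6 mice (C57BL/6J in the study's methods) that were 9 weeks old and had eaten the diet for 6 weeks from an age of 3 weeks, 1 library per mouse. Iron in the deficient food is labelled as below 2 ppm for each animal, but as above 2 ppm in the description of the treatment. The study left out 1 contaminated sample from each group without naming it, so all 20 mice were kept. The study asked how gene expression in the heart differs in iron-deficiency anemia, and the values here describe the transcripts of these 8 proteins.

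Complex I takes electrons from NADH and passes them along a chain of iron-sulfur clusters to ubiquinone. Complex III takes them from ubiquinol through the Rieske iron-sulfur protein and the heme of cytochrome c1 to cytochrome c, which shuttles them to complex IV. The heart, which contracts on oxidative metabolism, holds these proteins in abundance, and each needs iron that is assembled into its cofactor inside mitochondria and inserted by dedicated factors. Counts of messenger RNA say nothing of how many of these proteins hold their cofactor.

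The iron of such proteins is held by residues such as cysteine and histidine, which can lie in short stretches. Whether these stretches set the 8 genes apart from other subunits of the chain was not examined. A plain pattern of residues was looked up in 5 of the genes and found such a stretch in each. The rest of the 8 were given no pattern, so whether they hold one is not shown. The coding sequence of each stretch is shown 5′ to 3′ from mouse GENCODE release M21 transcripts, with the codons that the pattern fixes in capitals and codons counted from 1 at the start codon. In *Cycs* (pattern at codons 15 to 19) and *Cyc1* (codons 121 to 125) the capitals mark the cysteine, cysteine and histidine that hold heme c. In *Ndufs8* (codons 113 to 124 and 152 to 163), *Ndufv1* (codons 379 to 385) and *Uqcrfs1* (from codon 217) they mark residues of the iron-sulfur patterns.

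Cycs: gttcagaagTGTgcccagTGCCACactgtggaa
Cyc1: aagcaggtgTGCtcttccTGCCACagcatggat
Ndufs8, upstream match: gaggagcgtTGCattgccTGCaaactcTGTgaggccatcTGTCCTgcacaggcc
Ndufs8, downstream match: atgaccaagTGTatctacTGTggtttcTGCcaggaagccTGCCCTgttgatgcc
Ndufv1: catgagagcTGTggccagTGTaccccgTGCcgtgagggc
Uqcrfs1: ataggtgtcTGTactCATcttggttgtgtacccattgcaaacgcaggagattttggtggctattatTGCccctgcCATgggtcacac

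*Cycs* and *Cyc1* share the heme pattern although 1 encodes a soluble carrier and the other a membrane-anchored subunit. Among 21842 protein-coding genes, 2.07% held the heme c pattern, 0.0183% the pattern of *Ndufs8*, 3.79% that of *Ndufv1* and 0.165% the Rieske pattern, so a match alone does not name an iron protein.

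Library totals lay between 6797180 and 8960688 read pairs in control mice (median 7902932) and between 6682177 and 7833916 in IDA mice (median 6806177). Markers of cardiomyocytes were present in every heart, with a summed level of 5372 to 6433 CPM (read pairs scaled to library size) over 10 genes in control and 4956 to 6663 CPM in IDA. The erythroid list summed to 651 to 794 CPM in control and 777 to 1540 CPM in IDA. In edgeR, 6 of its 8 tested genes were higher in IDA and 0 lower, against 35.0% and 32.5% of all tested genes. The list includes *Tfrc*, whose mRNA the study describes as responding to iron. Its globin genes *Hbb-b1*, *Hbb-b2*, *Hba-a1* and *Hba-a2* had at most 1 count per mouse, and its *Hbb-bs* and *Hbb-bt* were not in the count table. Skeletal muscle markers summed to 6.95 to 10.9 CPM in control and 9.04 to 32.4 CPM in IDA, and adipocyte markers to 54.7 to 105 CPM and 79.0 to 111 CPM. Leukocyte markers summed to 331 to 394 CPM and 340 to 482 CPM, with 5 of 8 tested genes higher in IDA and 2 lower. In whole tissue, fewer cells of a type and less RNA per cell cannot be told apart.

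Of the 8 genes, 7 were higher in IDA hearts and 0 lower in edgeR's quasi-likelihood test, at p-values below 0.05 after Benjamini-Hochberg adjustment across the 13590 genes. This count is read against 35.0% of all tested genes that were called higher and 32.5% that were called lower. *Ndufs1* was the gene not called. The differences were small, with log2 fold changes from 0.01 to 0.27 and a median of 0.17, against a median of 0.02 over all tested genes. DESeq2's Wald test also called 7 higher and 0 lower, against 34.5% and 33.0% of all genes. Most of these calls depended on how the length of the gene and the size of the library were treated, as described for each comparison, and *Cycs* was the only one of the 8 that stayed higher under each of 16 alternative settings.

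NADH is oxidised at the tip of complex I by the protein of *Ndufv1*, which binds the flavin and the first iron-sulfur cluster. *Ndufv1* (chromosome 19 of mm10, 4007505 to 4012725, minus strand, 10 exons) had 258 CPM in the lowest, 283 CPM in the median and 331 CPM in the highest control mouse, and 289, 339 and 349.9 CPM in the IDA mice. The groups overlapped, with 6 of 10 IDA mice above the highest control and 9 of 10 above the control mean. The means were 291 ± 24.3 CPM in control and 326 ± 24.9 CPM in IDA (SD, n = 10 each), a log2 fold change of 0.16 ± 0.05 (SE; adjusted p = 0.00623 in edgeR's quasi-likelihood test).

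*Ndufv2* (chromosome 17, 66078795 to 66101491, minus strand, 8 exons) encodes the partner of that subunit, with a cluster beside the main path. Its lowest, median and highest levels were 132, 150.0 and 179.9 CPM in control and 156, 174 and 184 CPM in IDA. Each of the 10 IDA mice exceeded the control mean, but only 3 exceeded the highest control. In edgeR, the log2 fold change was 0.16 ± 0.05 (SE, adjusted p = 0.01001).

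*Ndufs1* (chromosome 1, 63143592 to 63176822, minus strand, 20 exons) encodes the largest subunit, whose clusters carry the electrons onward. Control mice had 356 CPM at the lowest, 385 CPM at the median and 445 CPM at the highest, and IDA mice 342, 402 and 446 CPM. The ranges lay nearly on top of each other, and 6 of 10 IDA mice were above the control mean. Its log2 fold change of 0.01 was smaller than the SE of 0.05 (adjusted p = 0.83 in edgeR). Of its 2927 exonic bases, 248 overlapped exons of *Gm11602*, and the counting did not use strand.

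The subunits of *Ndufs8* and *Ndufs7* carry the last clusters before ubiquinone. *Ndufs8* (chromosome 19, 3908863 to 3912774, minus strand, 7 exons) had lowest, median and highest levels of 121, 133 and 152 CPM in control and of 142, 165 and 177 CPM in IDA. Here 7 IDA mice exceeded the highest control and 10 exceeded the control mean. The means of 135 ± 10.4 CPM and 162 ± 12.3 CPM (SD, n = 10 each) gave a log2 fold change of 0.27 ± 0.05 (SE, adjusted p = 5.10e-05 in edgeR), the highest of the 8.

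*Ndufs7* (chromosome 10, 80249452 to 80256792, plus strand, 8 exons) encodes the subunit with the cluster next to the ubiquinone site. Its levels ran from 114 through a median of 131 to 151 CPM in control and from 136 through 157 to 161 CPM in IDA. The groups overlapped in a narrow range, and 7 IDA mice were above the highest control. This came to a log2 fold change of 0.20 ± 0.05 (SE, adjusted p = 0.00173 in edgeR).

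In complex III, *Uqcrfs1* (chromosome 13, 30540312 to 30545316, minus strand, 2 exons) encodes the Rieske protein. It had 190.4, 215 and 252.02 CPM in the lowest, median and highest control mouse and 218, 254.1 and 263 CPM in IDA. Of the IDA mice, 9 were above the control mean and 6 above the highest control. The difference was 0.16 ± 0.05 on the log2 scale (SE, adjusted p = 0.00874 in edgeR).

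*Cyc1* (chromosome 15, 76343523 to 76345934, plus strand, 7 exons) encodes cytochrome c1, which hands the electron to cytochrome c. Its lowest, median and highest levels were 204, 222 and 257 CPM in control and 227, 266 and 278 CPM in IDA. As for *Uqcrfs1*, 9 IDA mice were above the control mean and 6 above the highest control. It was higher in IDA by 0.17 ± 0.05 on the log2 scale (SE, adjusted p = 0.00410 in edgeR).

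*Cycs* (chromosome 6, 50562563 to 50566474, minus strand, 3 exons) encodes somatic cytochrome c, a respiratory carrier that also takes part in apoptosis. Its levels were lowest of the 8, with 42.3, 46.1 and 51.1 CPM in the lowest, median and highest control mouse and 47.4, 55.3 and 63.8 CPM in IDA. The overlap was small, with 8 of 10 IDA mice above the highest control and 10 above the control mean. The means were 46.3 ± 3.38 CPM and 54.6 ± 4.50 CPM (SD, n = 10 each), a log2 fold change of 0.24 ± 0.05 (SE, adjusted p = 0.000332 in edgeR).

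**Figure D1:**
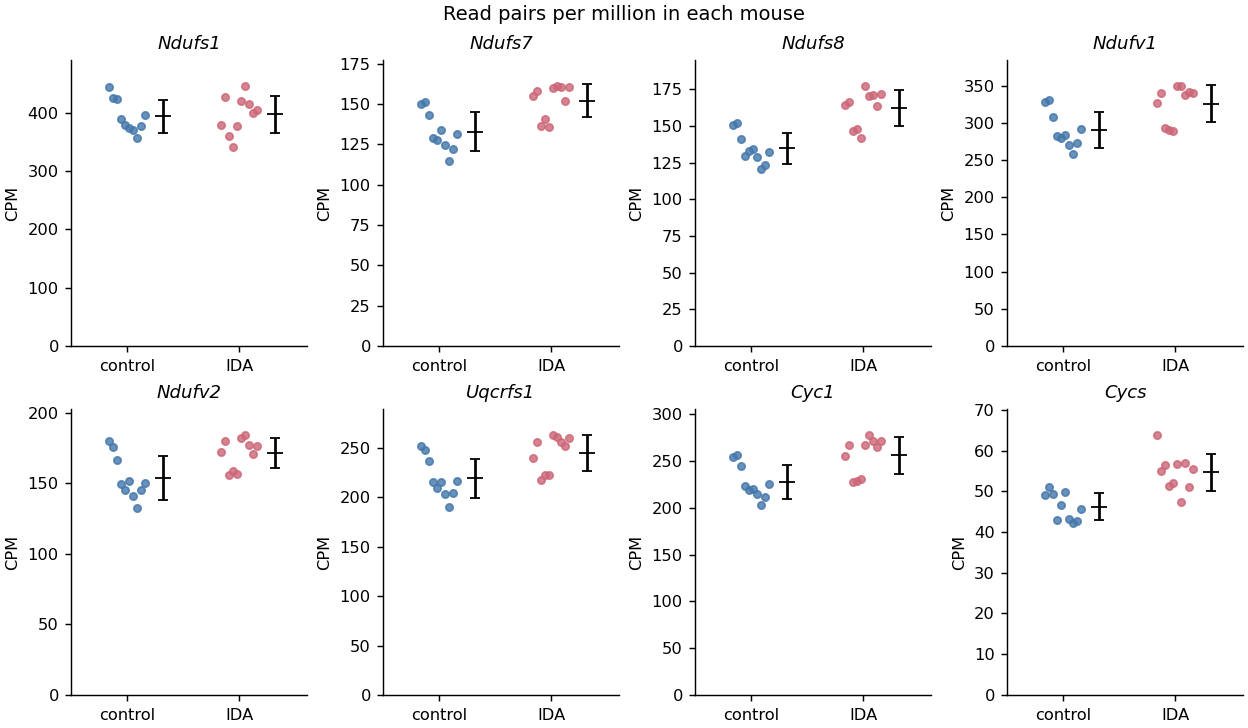
Levels in CPM (linear axis from 0) of the 8 genes in each of 10 control and 10 IDA mice; points are mice, and the black bars give the mean and SD. The groups overlap in every panel, with 8 IDA mice above the highest control for *Cycs*, 7 for *Ndufs7* and *Ndufs8*, and 1 for *Ndufs1*.

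Reads of *Cycs* need care because its coding sequence has close copies in the genome. Cut into stretches of 75 bases, the read length, its 315 coding bases are shared to 100% with transcripts of other genes. Over the whole transcript of 3123 bases, 797 of 3049 such stretches (26.1%) are shared, with *Gm10053* and 4 processed pseudogenes, none of which is a row of the count table. The counting command did not ask for reads that map to several places, so reads from the coding bases of *Cycs* may be missing from its count. Its longest exon, of 2823 bases, is mostly untranslated. *Ndufs1* shared 105 of 2587 stretches (4.06%) with 1 other gene, and the other 6 genes shared 0.

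Levels of different genes were compared per length, as RPKM computed from read pairs and exonic bases. These rest on counts after duplicate removal, and *Cycs* may lack reads from its coding bases, so the order is that of the counted read pairs. In control mice the mean RPKM was highest for *Cyc1* (191), followed by *Ndufv1* (185), *Ndufs7* (175), *Uqcrfs1* (167), *Ndufs1* (135), *Ndufs8* (131) and *Ndufv2* (104), while *Cycs* stood at 15.1. Neighbours in this order overlapped in their ranges over the 10 mice, apart from *Ndufv2* and *Cycs*, whose ranges did not meet. In IDA mice the order was the same except that *Ndufs8* (158) came before *Ndufs1* (136), with overlapping ranges.

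The 7 genes other than *Cycs* were among the most densely read genes of the heart, between the 96.3 and 99.8 percentile of read pairs per exonic base, and *Cycs* was at the 53.8 percentile. Duplicate read pairs had been removed before counting, and no tested gene of at least 200 bases had a mean above 2.16 read pairs per base. Of 13574 such genes, 268 (1.97%) averaged 1 read pair per base or more, among them 6 of the 8.

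The counts of these genes hardly followed the size of the library. Within the control group, the slope of log2 counts on log2 library size was 0.15 for *Ndufv1*, -0.04 for *Ndufv2*, 0.29 for *Ndufs1*, 0.25 for *Ndufs8*, 0.06 for *Ndufs7*, 0.05 for *Uqcrfs1* and 0.19 for *Cyc1*, against a median of 1.05 over all tested genes. In the IDA group the same slopes lay between 0.09 and 0.38, and the median of all genes was 1.22. *Cycs* had slopes of 0.40 in control and 1.43 in IDA. Counting error alone puts the variance of the counts near 1 times the mean. For *Uqcrfs1* it was 0.60 times the mean in control and 0.74 times the mean in IDA. It was above 1 in both groups for *Ndufs1*, *Ndufs8*, *Ndufv1* and *Cycs* (1.44 to 6.46). For *Ndufs7*, *Ndufv2* and *Cyc1* the groups lay on different sides of 1. These ratios were not tested.

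For genes that behave in this way, division by library size lifts the CPM of small libraries, and the IDA libraries were smaller. The counts themselves, before any scaling, are therefore given too. *Ndufs8* had 1029 ± 41.9 read pairs in control and 1162 ± 41.8 in IDA (SD, n = 10 each). Its highest control had 1086 and its lowest IDA mouse 1092, so the groups did not overlap. The share of all tested genes whose unscaled counts separate in this way was not computed. *Cycs* had 354 ± 24.2 and 394 ± 50.5 read pairs, with 8 IDA mice above the control mean. *Ndufs1* had 3010.5 ± 85.2 and 2848 ± 85.1 read pairs, with 1 IDA mouse above the control mean.

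The counts of the other 5 genes were 4.97% to 7.63% higher on average in IDA, and every IDA mouse exceeded the control mean for each of them. *Ndufs7* had 1014 ± 29.1 read pairs in control and 1091 ± 38.0 in IDA. *Cyc1* had 1738 ± 42.1 and 1836 ± 39.1 read pairs. These unscaled counts were not tested.

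**Figure D2:**
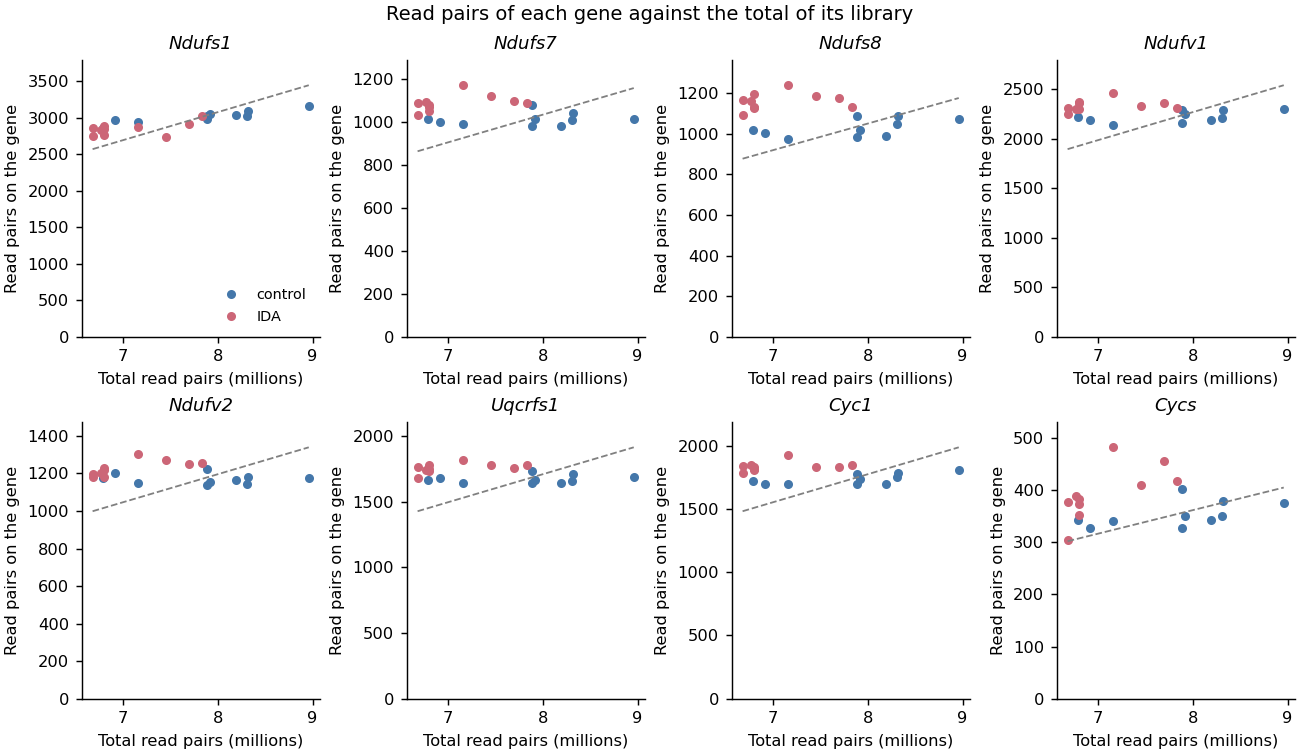
Unscaled read pairs of the 8 genes (vertical, from 0) against the total read pairs of the library (horizontal, 20 mice); the dashed line is the count expected if it rose in proportion to the total, drawn through the control mean. The points of most genes run nearly flat across the totals. For *Ndufs8* the highest control point is at 1086 and the lowest IDA point at 1092, and the share of all tested genes that separate so was not computed.

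With the log2 library size as a covariate, edgeR called 2 of the 8 genes higher and 1 lower, against 29.1% of all tested genes higher and 29.1% lower in that fit. *Ndufs8* (log2 fold change 0.13, adjusted p = 0.000865) and *Cycs* (0.18, adjusted p = 0.0120) remained higher, and *Ndufs1* was lower (log2 fold change -0.11, adjusted p = 0.00556). The other 5 had log2 fold changes between 0.01 and 0.05, and the lowest adjusted p was 0.106, for *Ndufs7*. Library size differs between the diets in these mice, so this fit takes out part of any difference of diet as well.

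Fold changes in this series fell with the exonic length of the gene, and the tested genes were ranked by length into 10 classes of equal size. *Ndufs7* (758 exonic bases) and *Ndufs8* (1027) belonged to class 1, the shortest, in which the median log2 fold change was 0.34 and 79.3% of genes were called higher. *Cyc1* (1194), *Uqcrfs1* (1313), *Ndufv2* (1472) and *Ndufv1* (1572) belonged to class 2, with a median of 0.27 and 66.8% called higher. These 6 genes were 0.07 to 0.14 below the median of their own class. *Ndufs1* (2927) and *Cycs* (3059) belonged to class 6, whose median was 0.00, and *Cycs* was 0.24 above it. The class and the length correction used all exonic bases of *Cycs*, although reads from its coding bases may be missing. A class for the bases of *Cycs* that are not shared was not computed. In class 10, the longest, the median was -0.53.

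When the trend on length was taken out of each mouse, 1 of the 8 genes was higher and 1 lower, against 31.5% of tested genes called higher and 23.5% called lower in the same fit. *Cycs* was higher, with lowest, median and highest adjusted levels of 41.0, 45.9 and 50.9 CPM in control and of 48.0, 56.3 and 67.3 CPM in IDA (a difference of 0.30, adjusted p = 0.000113 in edgeR). Of the IDA mice, 9 exceeded the highest control. *Ndufs7* was lower (log2 fold change -0.14, adjusted p = 0.0111 in edgeR), with 1 of 10 IDA mice above the control mean. The log2 fold changes of the other 6 were 0.05 for *Ndufs1*, -0.01 for *Ndufs8*, -0.03 for *Ndufv1*, -0.05 for *Ndufv2*, -0.07 for *Uqcrfs1* and -0.09 for *Cyc1*, and none passed the test (lowest adjusted p = 0.145, for *Cyc1*). The median of the 8 was -0.04 and that of all tested genes 0.04. Whether the trend on length came from the tissue or from the libraries was not tested.

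**Figure D3:**
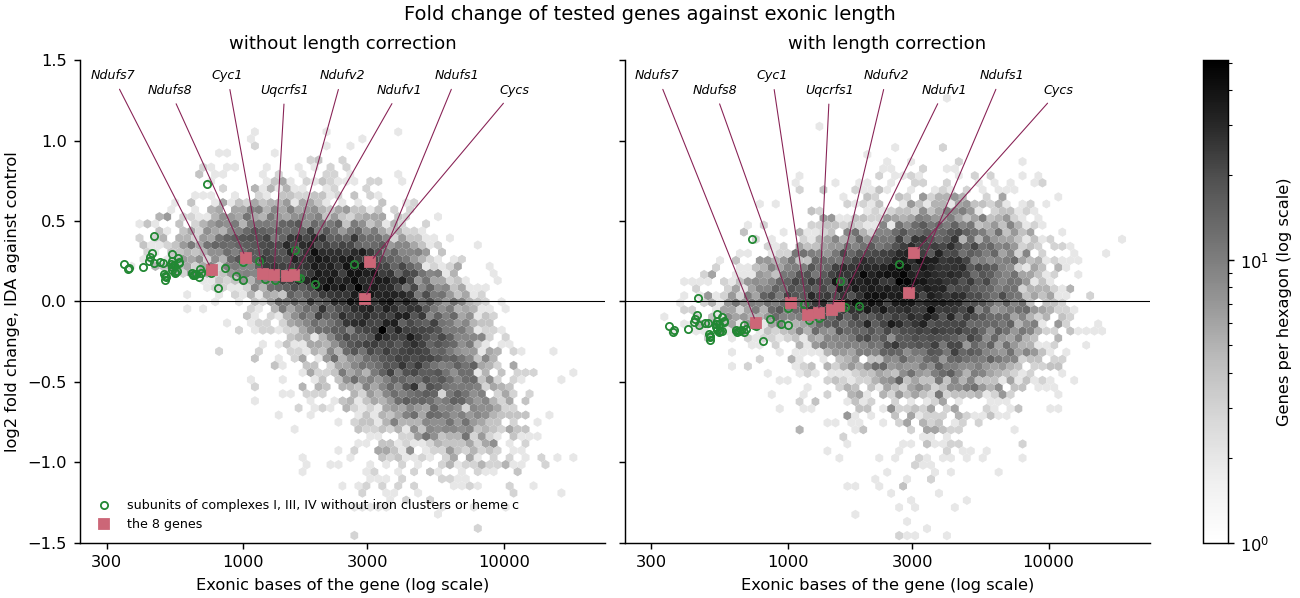
Log2 fold change (IDA against control) of tested genes against exonic length (log scale), without and with the length correction; shading counts genes per hexagon, squares are the 8 genes, and circles are other nuclear subunits of complexes I, III and IV. Genes with a log2 fold change beyond 1.5 in size are not drawn. On the left, short genes lie above 0 and long genes below; on the right, *Cycs* at 0.30 stands above the other 7.

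The column names hold library numbers in a lower and a higher series whose meaning is not given in the sources used here. In the lower series, 5 control totals (7890559 to 8960688) lay above all 7 IDA totals (6682177 to 7833916), and 7 of the 8 genes were higher in edgeR, with log2 fold changes of 0.25 to 0.35, and 0 lower, against 30.2% of all genes called higher and 28.7% lower in that fit. In the higher series, 5 control totals (6797180 to 8316427) and 3 IDA totals (6805453 to 7702288) overlapped. There, *Cycs* was higher (log2 fold change 0.28, adjusted p = 0.0211), the other 7 genes had log2 fold changes between -0.10 and 0.16, and none of those 7 passed the test, against 19.4% of all genes called higher and 24.1% lower. With the series as a covariate, all 20 mice gave 7 higher and 0 lower, against 35.2% and 32.6% of all genes. With the mean of the erythroid markers as a covariate, 3 were higher and 0 lower (*Ndufs7*, *Ndufs8* and *Cycs*), against 27.4% and 26.9% of all tested genes. The fold changes of the 8 were no smaller than without this covariate. Those of *Ndufv1*, *Ndufv2*, *Uqcrfs1* and *Cyc1*, which lost their calls, were 0.18 to 0.19, with SEs of 0.08 to 0.09 against 0.05 before.

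**Figure D4:**
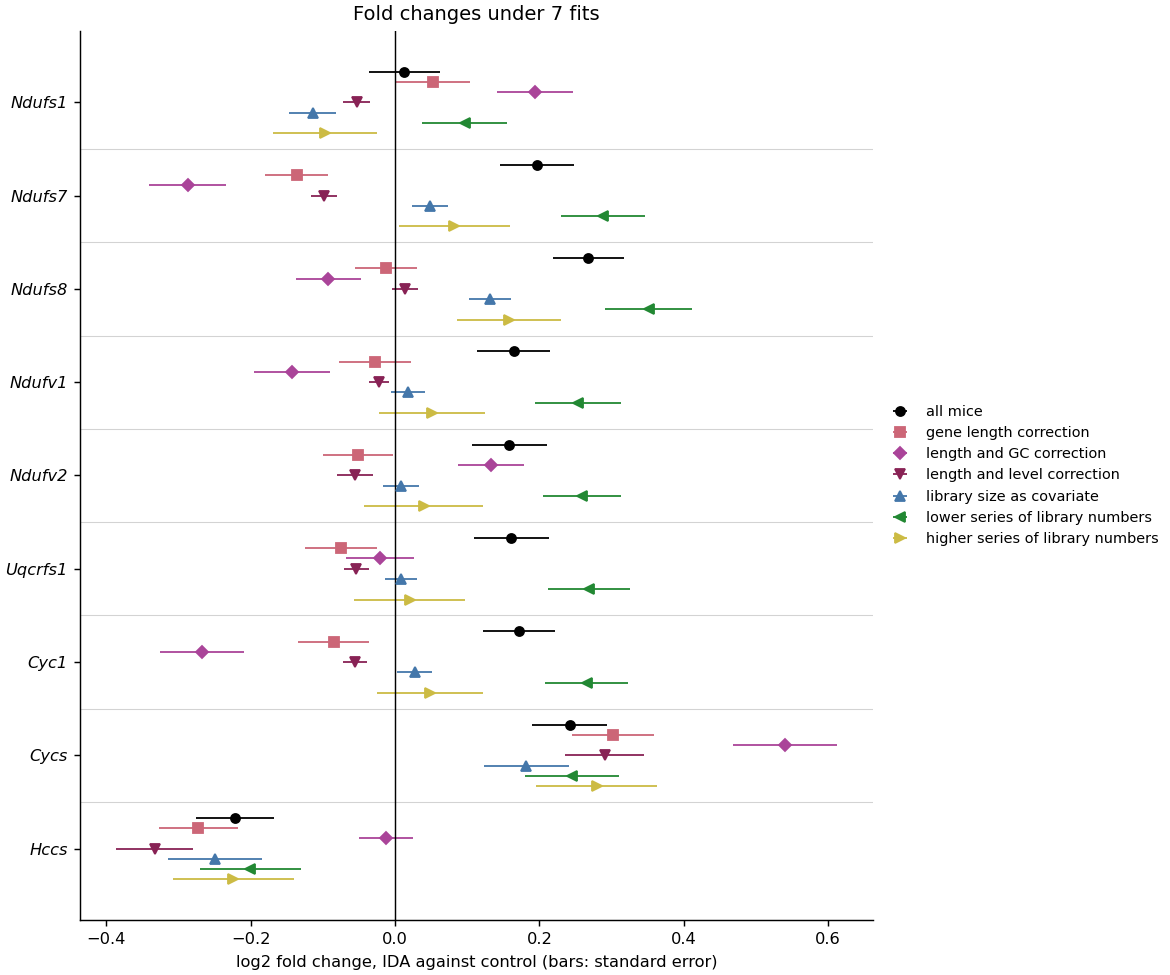
Log2 fold changes (IDA against control, points) with standard errors (bars) of the 8 genes and *Hccs* under 7 fits. *Cycs* lies right of 0 in all of them, from 0.18 to 0.54, *Hccs* lies at -0.01 with the correction for length and GC content and between -0.33 and -0.20 in the others, and each of the 7 other genes has points on both sides of 0.

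Ratios per length within a mouse were computed for 5 pairs of the 8 genes. *Cyc1* had 1.14 times the level of *Uqcrfs1* in control and 1.15 times in IDA (geometric means over 10 mice), and *Ndufv1* had 1.78 times the level of *Ndufv2* in both groups, and for both pairs the group difference was below the SD of the control mice. The ratio of *Ndufs7* to *Ndufs8* was 1.34 in control and 1.27 in IDA, a log2 difference of -0.07 against a control SD of 0.03, and that of *Cyc1* to *Cycs* was 12.6 and 12.0. The ratio of *Ndufs1* to *Ndufv1*, which differ in length, moved most, from 0.728 to 0.655, a log2 difference of -0.15 against a control SD of 0.03, and its groups still overlapped. These ratios are descriptions and were not tested. After duplicate removal the counts of most of these genes hardly followed library size, so the ratios describe the counts and may not give those of the transcripts.

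Across the 20 mice, the deviations of log2 CPM from the group mean ran together in most of the 8 genes. Each of the 7 genes other than *Cycs* correlated with the mean of the others at a Pearson's r of 0.87 to 0.99, and *Cycs* at 0.42. With the length correction the 7 stood at 0.89 to 0.98 and *Cycs* at 0.08. The mice share their library size in all genes, so that r describes these libraries. The genes outside the 8 with the most similar deviations were *Fndc5*, *Ndufa5*, *Prdx3*, *Etfb* and *Cox5a* without the correction and *Dld*, *Eno3*, *Uqcrc1*, *Tmem38a* and *Sucla2* with it, each with r = 0.99.

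The subunits of the same complexes that hold neither an iron-sulfur cluster nor heme c gave the setting for these values. Over all tested genes, 35.0% were called higher and 32.5% lower, and 31.5% and 23.5% with the length correction. The median exonic length was 638 bases in the complex I list and 503 in the complex III list. In length class 1, the shortest, 79.3% of all tested genes were called higher. Of 30 tested further complex I subunits, 29 were higher and 0 lower in IDA (median log2 fold change 0.20), and with the length correction 2 were higher and 20 lower (median -0.14). The largest value was that of *Ndufb4* (0.41, adjusted p = 0.000120 in edgeR) and the smallest that of *Ndufab1*, the mitochondrial acyl carrier protein (0.08, adjusted p = 0.17). Of 7 complex III subunits without iron, 6 were higher and 0 lower (median 0.17), and with the length correction 0 were higher and 5 lower (median -0.13). *Uqcr10* had the largest of these values (0.27) and *Uqcrc2*, a core subunit, the smallest (0.11, adjusted p = 0.0573).

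Of 4 other nuclear proteins that bring iron cofactors to the chain, 3 were higher and 0 lower, and with the length correction 0 were higher and 2 lower. The shares of all tested genes were 35.0% higher and 32.5% lower, and 31.5% and 23.5% with the correction. *Sdhb*, with the iron-sulfur clusters of complex II (log2 fold change 0.15, adjusted p = 0.0146 in edgeR), and *Sdhc* (0.14, adjusted p = 0.0150) and *Sdhd* (0.16, adjusted p = 0.00614), which anchor its heme, were higher. *Etfdh*, the iron-sulfur protein that feeds electrons from fatty acid oxidation to ubiquinone, stood at 0.05 on the log2 scale (adjusted p = 0.40). With the length correction, *Sdhb* and *Sdhc* were lower (-0.12 each, adjusted p = 0.0365 and 0.0371).

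All 15 nuclear subunits of complex IV, of median exonic length 569 bases, were higher without the correction (median 0.20), against 35.0% of all tested genes. With it, 1 was higher and 11 were lower (median -0.15), against 31.5% and 23.5% of all tested genes. The 1 was *Cox4i2*, an isoform of a regulatory subunit, at 22.0 ± 3.19 CPM in control and 36.4 ± 4.10 CPM in IDA (log2 fold change 0.73, adjusted p = 2.92e-07, and 0.39 with the correction, adjusted p = 8.94e-06, in edgeR). *Cycs* and *Cox4i2* were thus higher in both fits, as were the 2 further complex I subunits called higher with the correction.

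Of 8 listed factors that insert cofactors or help to assemble complexes I and III, 5 were tested. *Hccs* encodes holocytochrome c synthase, which attaches heme to cytochrome c and cytochrome c1 at the sequences printed for *Cycs* and *Cyc1*. It had 129, 143 and 157 CPM in the lowest, median and highest control mouse and 105, 124 and 139.7 CPM in IDA. All 10 IDA mice were below the control mean, and 6 were below the lowest control. Its log2 fold change was -0.22 ± 0.05 (SE, adjusted p = 0.000997 in edgeR) and -0.27 under the length correction (adjusted p = 0.000230). A correction for length and GC content together ended this call (log2 fold change -0.01, adjusted p = 0.81), and the other 15 alternative settings kept it. *Hccs* had 0.416 read pairs per exonic base, below the levels of the 7 densely read genes. Its unscaled counts were 1099 ± 84.8 in control and 885 ± 113 in IDA, where the libraries were smaller. Scaled to library size, the means were 143 ± 8.99 CPM and 123 ± 12.8 CPM (SD, n = 10 each).

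*Bcs1l* encodes the ATPase that moves the Rieske protein into complex III. Its lowest, median and highest levels were 71.5, 76.6 and 84.5 CPM in control and 82.0, 91.1 and 99.7 CPM in IDA, and each IDA mouse exceeded the control mean. It was higher by 0.26 ± 0.05 on the log2 scale (SE, adjusted p = 2.76e-05 in edgeR), by 0.11 with the length correction (adjusted p = 0.0127), and also under all 16 alternatives. *Lyrm7*, which stabilises the Rieske protein before insertion, had a log2 fold change of 0.08 (adjusted p = 0.0874).

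*Ttc19*, which acts after Rieske insertion, had a log2 fold change of -0.07 (adjusted p = 0.18). *Nubpl*, an iron-sulfur assembly factor of complex I, was higher at 0.30 (adjusted p = 0.000747), and had a value of 0.04 with the length correction (adjusted p = 0.60). Among these factors the heme attachment gene and the Rieske insertion gene thus moved in opposite directions without and with the length correction. The clients of both were higher without it. With length and GC content corrected together, *Hccs* stood at -0.01 (adjusted p = 0.81 in edgeR) and *Bcs1l* at 0.098 (adjusted p = 0.0286).

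**Figure D5:**
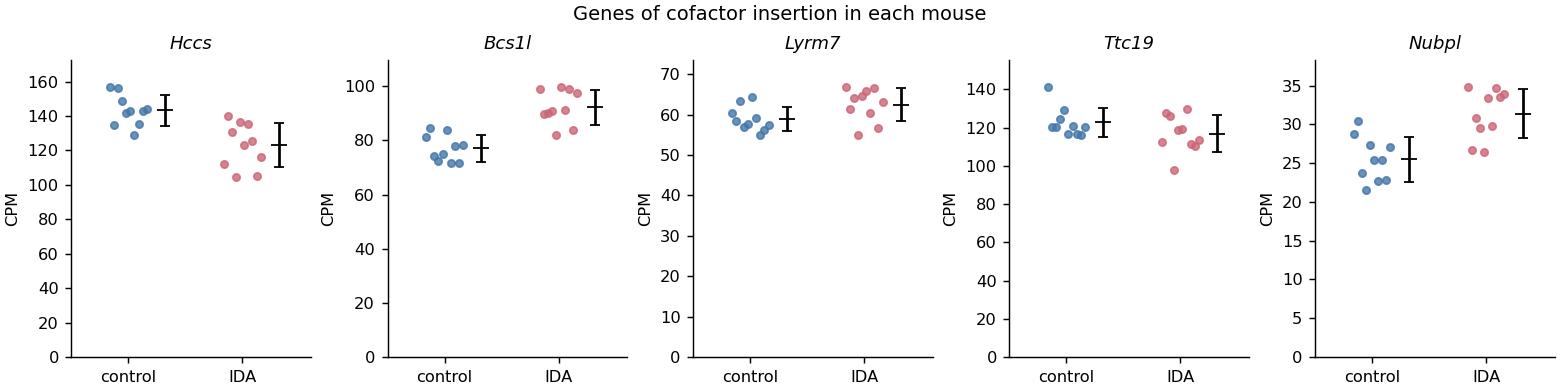
Levels in CPM (linear axis from 0) of 5 genes of cofactor insertion or complex assembly in each of 10 control and 10 IDA mice. Points are mice, and the black bars give the mean and SD. All 10 IDA mice lie below the control mean of 143 CPM for *Hccs* and above that of 77.1 CPM for *Bcs1l*.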

How the data were processed

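The authors aligned 75-bp paired-end reads of poly(A)-selected RNA to mm10 (STAR), took out PCR duplicates (samtools) and assigned read pairs to the exons of named genes without strand (featureCounts 1.4.5-p1). The deposited values are these raw counts of 23420 genes, without normalization. Mice were grouped by their labels.

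Counts were normalized by TMM in edgeR (version 4.0.16, R 4.3.3), and those reaching 1 CPM in 10 or more mice entered its quasi-likelihood test, with diet as the only factor. P-values were adjusted over all 13590 tested genes by Benjamini-Hochberg and called below 0.05. The length correction entered, for each mouse, a loess fit of degree 1 and span 0.5 of the deviation from the gene mean on log2 exonic length as offsets. Log2 CPM used a prior count of 2. The steps were tested on simulated counts.

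The genes, gene lists and tests were chosen with earlier results of these data known. In each list the 2 highest and 2 lowest log2 fold changes were eligible for naming, or all genes of lists of up to 5, and the 5 genes most similar to the 8. Alternatives were DESeq2 (version 1.42.0), normalizations, filters, covariates, a block for the replicate number and mice left out. Corrections for GC content or level, the library number series, and the runs of *Hccs* and *Bcs1l* were added after the data were seen. Sequence patterns used the longest coding transcript of each gene. Depth limits precision to counting error and the spread between mice. The ± SD values of CPM also take in the spread of the library totals, which the counts of most of the 8 genes hardly followed. *Ndufv2* in control had 1171 ± 26.0 read pairs but 154 ± 15.4 CPM (SD, n = 10). Protein sequences were not used here. A gene that the naming rule selects is not reported here.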

Additional observations from a re-analysis of the deposited data

How the results depend on the processing

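The call of 7 genes higher and 0 lower held with DESeq2, with p below 0.01 in edgeR and DESeq2, with 2 other normalizations, with both filters and with the library series as covariate. In these fits, 25.8% to 37.9% of all tested genes were called higher and 24.0% to 34.8% lower. Leaving out each of the 20 mice gave 7 to 7 higher and 0 to 0 lower, and leaving out 1 mouse of each group in 100 fits gave 6 to 7 higher. The counts moved to 1 higher and 1 lower with the length correction, 2 and 1 with library size as covariate, 3 higher with the erythroid covariate (where no fold change was smaller and the SEs were larger), 3 and 3 with length and GC (27.5% and 19.2% of all genes), 1 and 4 with length and level (31.3% and 26.0%), and 1 higher in the higher series of library numbers. Replicate numbers in the labels did not pair the mice (correlations of deviations from -0.28 to 0.26, 3 of 10 above 0.1). With the replicate block 7 were higher and 0 lower, against 33.7% and 31.8% of all tested genes. With block and length correction 1 was higher and 1 lower, against 29.2% and 22.2%.

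Directions turned as follows. With the length correction the log2 fold changes were *Ndufs7* -0.14, *Ndufs8* -0.012, *Ndufv1* -0.028, *Ndufv2* -0.051, *Uqcrfs1* -0.075 and *Cyc1* -0.085, and with the replicate block added they were -0.14, -0.015, -0.030, -0.051, -0.076 and -0.088. With length and GC, *Ndufs7* was at -0.29, *Ndufs8* at -0.092, *Ndufv1* at -0.14, *Uqcrfs1* at -0.020 and *Cyc1* at -0.27. With length and level, *Ndufs1* was at -0.053, *Ndufs7* at -0.10, *Ndufv1* at -0.022, *Ndufv2* at -0.055, *Uqcrfs1* at -0.054 and *Cyc1* at -0.055. With library size as covariate *Ndufs1* was at -0.11. The causes were not tested. *Cycs* was higher in 16 of 16 alternatives (0.18 to 0.54, adjusted p from 3.96e-06 to 0.0211 in edgeR or DESeq2), in 20 of 20 fits without a mouse and in 100 of 100 without a pair. With the length correction, leaving out each mouse kept *Cycs* higher and *Ndufs7* lower in 20 of 20, and made *Cyc1* lower in 1. GC content was known for 94.0% of tested genes.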

Other observations

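The genes that build iron-sulfur clusters in mitochondria and pass them on were counted as a separate list. Of 12 tested, 10 were higher and 0 lower in IDA (median log2 fold change 0.27), and with the length correction 2 were higher and 3 lower (median 0.00). Over all tested genes, 35.0% were higher and 32.5% lower, and 31.5% and 23.5% with the correction. *Hscb*, the co-chaperone of cluster transfer, was higher at 0.40 in edgeR's quasi-likelihood test and had a value of 0.07 with the correction (adjusted p = 0.33). *Nfs1*, the cysteine desulfurase that supplies the sulfur, stood at -0.01 (adjusted p = 0.78) and was lower with the correction (-0.12, adjusted p = 0.0212).

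*Cyb5b*, a heme protein of the outer mitochondrial membrane outside the chain, stood at -0.08 on that scale (adjusted p = 0.0845 in edgeR) and was higher with the length correction (0.14, adjusted p = 0.00682). The 8 mitochondrial-encoded subunits on the list were not analysed here.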
